A study of Homo sapiens with 8 samples.

Results

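The enzymes described here make serine and carry its one-carbon unit through the folate cycle. They are 9 genes, chosen by name: PHGDH, PSAT1 and PSPH of serine synthesis, SHMT1 and SHMT2 of serine-to-glycine conversion, MTHFD1, MTHFD1L and MTHFD2 of folate interconversion, and TYMS of thymidylate synthesis. They are 9 of the 60291 gene identifiers in the count files, and all 9 were tested. The choice goes by gene name and pathway role, and was made with earlier results of these data known.

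The study silenced NFE2L2 in A549, a human lung adenocarcinoma cell line with a loss-of-function mutation in KEAP1, and sequenced total RNA with a strand-specific kit after depletion of ribosomal RNA. All libraries come from this one line. Each transfection used 250000 cells and Lipofectamine RNAiMAX, and RNA was taken at 48 h. The NFE2L2 siRNA group was 3 transfections, one with each of 3 independent duplexes (siRNA-1, siRNA-2 and siRNA-3, called duplexes 1 to 3 below) at 5 nmol. The control siRNA group was 4 transfections at the same amount, with 2 for each of 2 control duplexes (replicates 1 and 2 for control duplex 1, replicates 3 and 4 for control duplex 2). A single mock transfection received the reagent without siRNA. Nothing in the labels says that transfections came from separate cultures. The p-values therefore measure the spread between these transfections only, which may be technical. In the NFE2L2 siRNA group that spread also holds differences between duplexes. The main test treats the 4 control libraries as independent, which can make its p-values too small. The SD of log2 differences between control libraries was 0.142 and 0.105 within a duplex. Between the duplexes it was 0.198 to 0.250 (genes with a mean of at least 500 reads).

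NFE2L2 encodes NRF2, a transcription factor that switches on antioxidant and NADPH-producing genes and that KEAP1 normally marks for degradation. In KEAP1-mutant lung cancer cells NRF2 is known to act on serine synthesis partly through ATF4, an amino acid stress factor whose targets include PHGDH, PSAT1 and SHMT2. PHGDH oxidises 3-phosphoglycerate, PSAT1 transfers an amino group from glutamate, and PSPH removes the phosphate to release serine. SHMT2 in mitochondria and SHMT1 in the cytosol then move a carbon from serine to tetrahydrofolate. MTHFD2 and MTHFD1L process it to formate in mitochondria, and MTHFD1 loads formate back onto folate in the cytosol, for purines and for the thymidylate made by TYMS.

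Depth was 35525141 to 41645410 reads on genes in the 7 compared libraries and 39498992 in the mock library. The 9 enzymes had between 290 and 10235 reads in a library. NFE2L2 itself was at 32.9, 52.0 and 29.7 CPM with duplexes 1, 2 and 3 and between 107 and 117 CPM with control siRNA. CPM are counts per 1000000 gene reads after TMM scaling. NFE2L2 fell by 1.55 on the log2 scale (SE 0.178, adjusted p = 0.000995, edgeR). Of the 20 markers listed for epithelial, alveolar type II, fibroblast, leukocyte and endothelial cells, 10 were tested, and all 10 had log2 fold changes above 0. Of all 17811 tested genes, 8682 had a change below 0. LUM (9 or 10 reads with NFE2L2 siRNA, 2 to 9 with control siRNA) and CDH5 reached the 10-read filter only in NFE2L2 siRNA libraries. For these genes the filter favoured a change above 0. The fibroblast marker COL1A1 and the endothelial marker CDH5 passed the threshold, both higher with NFE2L2 siRNA, where 2.76% of all tested genes passed. COL1A1 had 143 to 169 reads with control siRNA and 331 to 569 with NFE2L2 siRNA. CDH5 had only 4 to 8 reads with control siRNA and 18 to 39 with NFE2L2 siRNA. The epithelial keratins KRT8 and KRT18 had at least 111143 reads in every library, and the other epithelial markers, CDH1 and EPCAM, had log2 fold changes of 0.74 (adjusted p = 0.0455) and 0.80 (adjusted p = 0.0624). Of the alveolar type II markers, SFTPC, SFTPB and NKX2-1 had at most 6 reads in any library, and NAPSA had 72 to 128 (log2 fold change 0.27, adjusted p = 0.422). Of the leukocyte markers, PTPRC and CD3E had at most 3 reads, whereas CD14 had 156 to 394, with all NFE2L2 siRNA libraries above all controls (log2 fold change 0.80, adjusted p = 0.0287, all edgeR). The summed leukocyte markers were between 7.66 and 11.1 CPM with NFE2L2 siRNA and between 4.49 and 6.72 CPM with control siRNA. The summed fibroblast markers were between 11.6 and 17.1 CPM and between 5.04 and 6.34 CPM, with DCN at no more than 1 read. The summed endothelial markers were between 0.615 and 1.01 CPM and between 0.215 and 0.305 CPM, with CLDN5 at no more than 1 read and VWF at no more than 5. Their part in the results below was not tested.

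None of the 9 enzymes passed the adjusted p threshold of 0.01 between NFE2L2 siRNA and control siRNA, where 2.76% of the 17811 tested genes did (edgeR quasi-likelihood test, two-sided, Benjamini-Hochberg adjustment over all tested genes). The count at an unadjusted p under 0.05 was 5 of 9 (PHGDH, PSAT1, SHMT2, MTHFD2 and TYMS, each with a negative change), against 25% of all genes in both directions and 11.7% with a negative change. DESeq2 called 1 of 9, MTHFD2, against 7.7% of all genes with an adjusted p, and limma-voom called 0 of 9 against 2.61%. The log2 fold change was below 0 for 7 of 9, with a median of −0.30 beside 0.01 over all tested genes. The 95% confidence interval lay above a log2 change of −1, a halving, for 8 of 9, with TYMS as the exception. The share of all tested genes with such an interval was not counted, so this count is not particular to the enzymes. Bulk RNA cannot tell fewer cells of a kind from less RNA per cell.

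**Figure D1:**
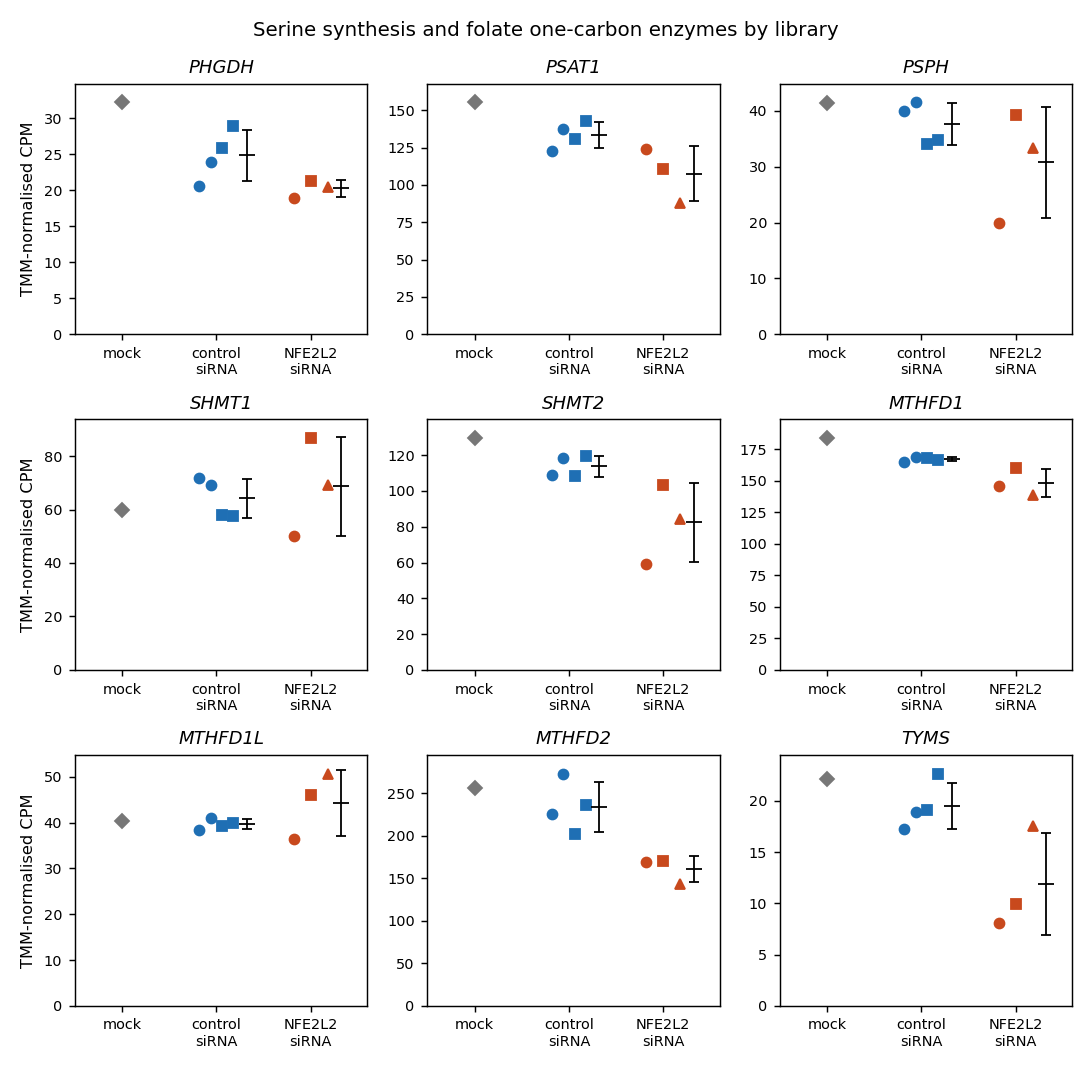
TMM-normalised CPM (y axis, from 0, a separate scale in each panel) of the 9 enzymes in the mock library (grey diamond), the 4 control siRNA libraries (blue, circles for duplex 1 and squares for duplex 2) and the 3 NFE2L2 siRNA libraries (red, circle, square and triangle for duplexes 1, 2 and 3). Black bars are the group mean ± SD, and the groups do not overlap for SHMT2, MTHFD1 and MTHFD2.

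The groups did not overlap for 3 of 9 enzymes, SHMT2, MTHFD1 and MTHFD2, each with all NFE2L2 siRNA libraries below all controls. Of all tested genes 11.4% were placed so, and 13.8% of those with a mean of at least 500 reads. With 3 against 4 libraries an exact permutation test, two-sided, has 35 divisions and cannot go below p = 0.0571, the value these 3 genes gave.

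MTHFD2 (ENSG00000065911.7, chr2:74413299-74444692, plus strand, GRCh37) is the NAD-dependent mitochondrial dehydrogenase and cyclohydrolase of the folate pathway, low in most adult tissues and high in many tumours. It measured 169, 170 and 144 CPM with duplexes 1, 2 and 3, and 226, 273, 201 and 236 CPM in control replicates 1 to 4. All 3 duplexes lay below the lowest control, and the mock library, at 256 CPM, lay within the control range. The group means were 161 ± 15.2 (SD, n = 3) and 234 ± 29.5 (SD, n = 4), so the NFE2L2 siRNA mean was 68.9% of the control mean. The log2 fold change was −0.54 (SE 0.118, 95% interval −0.80 to −0.27), with an adjusted p of 0.0239 in edgeR, 0.00168 in DESeq2 and 0.00872 in edgeR with the mock library counted as a control. It was 0.134 with the controls summed by duplex, 0.0672 and 0.186 with control duplex 1 or 2 alone, and from 0.0215 to 0.0835 with single libraries left out. It was over 0.05 without NFE2L2 siRNA replicate 3 or control replicate 2 or 4. No other enzyme of the 9 was under an adjusted p of 0.05 in edgeR, where 8.17% of all genes were, 3.54% with a negative change.

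The MTHFD2 promoter was the one promoter among those of the 9 enzymes with a match to the antioxidant response element core, the motif bound by NRF2 with a small MAF protein. Promoters are the 300 bases around each RefSeq start (250 before and 50 after, GRCh38.p14), with both strands searched; 7 of the 9 enzymes have one in the table and PSPH and SHMT2 are not in it. The core was spelled TGACNNNGC, and 13.3% of all 35116 promoters hold it. The first window below, shown because MTHFD2 had the smallest adjusted p of the 9, is chr2:74198611-74198639 on the plus strand, with the match, on the opposite strand, in capitals. The second and the third are from the same promoter, chr2:74198419-74198447 and chr2:74198529-74198557, with the CCAAT box (CCAAT, held by 34.6% of all promoters) in capitals. Both boxes lie before the RefSeq start, with first bases at −184 and −74, and their labels give only their order. The response element core lies after the start, with its first base at 6.
MTHFD2 response element core: ttccctcccgGCGCAGTCAccggcgcggt
MTHFD2 upstream CCAAT box: gctcttctggctCCAATcaaaagcagggc
MTHFD2 downstream CCAAT box: atgcggcagggaCCAATgggtggcggagg
A CCAAT box was found for 6 of the 7 enzymes with a promoter, all but TYMS. The cyclic AMP response element TGACGTCA (1.85% of all promoters) and the E2F spelling TTTNGCGC (1.79%) were found for none of the 7. A match is a description of these letters, and no binding was measured here.

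MTHFD1L (ENSG00000120254.11, chr6:151186815-151423023, plus strand), the mitochondrial synthetase that releases formate, measured 36.4, 46.0 and 50.7 CPM with duplexes 1, 2 and 3. The controls held a narrow range, 38.4, 41.1, 39.2 and 39.9 CPM, and the mock library was at 40.5 CPM. Duplex 1 lay below all controls and duplexes 2 and 3 above them. The log2 fold change was 0.16 (SE 0.118, 95% interval −0.10 to 0.42, adjusted p = 0.43, edgeR), 0.29 without NFE2L2 siRNA replicate 1 and 0.055 without replicate 3. Its promoters held the one match among the 7 enzymes to TGATGNAA, the composite C/EBP-ATF element bound by ATF4, which 3.62% of all promoters hold. The 4 MTHFD1L promoters in the table overlap, and the same site falls in 3 of them. It is shown, at chr6:150866346-150866375 on the plus strand in GRCh38.p14, with the element in capitals.
MTHFD1L composite element: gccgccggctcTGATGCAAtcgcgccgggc

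MTHFD1 (ENSG00000100714.11, chr14:64854749-64930175, plus strand), the cytosolic enzyme with all 3 folate activities in one chain, measured 146, 160 and 139 CPM with duplexes 1, 2 and 3. Control siRNA gave 165, 169, 168 and 167 CPM and the mock library 184 CPM. Relative to its level its control libraries were the tightest of the 9, with an SD of 1.70 CPM around a mean of 167 CPM, and all 3 duplexes lay below them. Its log2 fold change was −0.17 (SE 0.0835, 95% interval −0.36 to 0.01, adjusted p = 0.233, edgeR), and the NFE2L2 siRNA mean was 88.7% of the control mean.

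SHMT2 (ENSG00000182199.6, chr12:57623356-57628718, plus strand) measured 59.3, 104 and 84.4 CPM with duplexes 1, 2 and 3. Control siRNA gave 109, 118, 108 and 119 CPM, and the mock library gave 130 CPM. All 3 duplexes lay below the controls, with duplex 1 far below and duplex 2 just under the lowest control. In the fit it had a log2 fold change of −0.46 (SE 0.162, 95% interval −0.83 to −0.10, adjusted p = 0.109, edgeR). Without NFE2L2 siRNA replicate 1 it was −0.28 (adjusted p = 0.124), and without replicate 2 it was −0.68 (adjusted p = 0.015).

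SHMT1 (ENSG00000176974.13, chr17:18231174-18266877, minus strand), the cytosolic counterpart, measured 49.95, 86.7 and 69.2 CPM with duplexes 1, 2 and 3. The controls were 71.9 and 69.1 CPM for duplex 1 and 57.9 and 57.7 CPM for duplex 2, and the mock library was at 59.7 CPM. The NFE2L2 siRNA libraries spread on both sides of the controls. This gave a log2 fold change of 0.10 (SE 0.171, 95% interval −0.28 to 0.48, adjusted p = 0.768, edgeR), which was 0.28 without NFE2L2 siRNA replicate 1 and −0.12 without replicate 2.

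The ratio of SHMT2 to SHMT1, each per kilobase of transcript, was 1.39, 1.40 and 1.43 with duplexes 1, 2 and 3. It was 1.78, 2.01, 2.19 and 2.42 in the control libraries and 2.54 in the mock library. Both genes were lowest with duplex 1 and highest with duplex 2, while the ratio differed little between duplexes, and the groups did not overlap. The ratio of MTHFD2 to MTHFD1L was 3.65, 2.91 and 2.22 with the 3 duplexes, between 4.02 and 5.20 with control siRNA, and 4.96 in the mock library. The ratio of PSAT1 to PHGDH was between 3.62 and 5.57 with NFE2L2 siRNA and between 4.18 and 5.05 with control siRNA, and overlapped. Of 5 ratios computed 3 did not overlap; they were chosen with results known and were not tested.

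**Figure D2:**
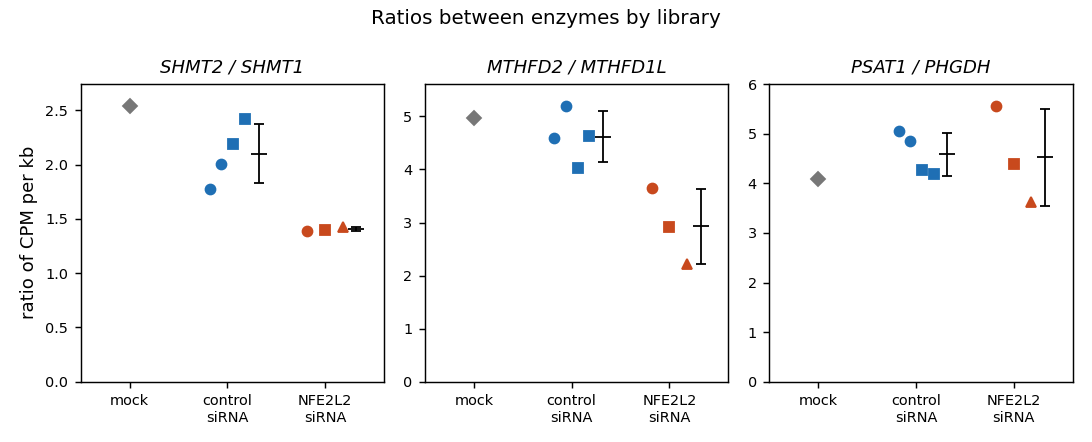
Ratios of CPM per kilobase between pairs of enzymes (y axis, from 0) by library, with colours and symbols for the mock (grey diamond), control siRNA (blue, circles for duplex 1 and squares for duplex 2) and NFE2L2 siRNA (red, circle, square and triangle for duplexes 1, 2 and 3) libraries, and group mean ± SD in black. SHMT2 to SHMT1 was 1.39 to 1.43 in the NFE2L2 siRNA libraries and 1.78 or more in the others, while PSAT1 to PHGDH overlapped.

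PHGDH (ENSG00000092621.7, chr1:120191034-120286841, plus strand), the first and committed enzyme of serine synthesis, measured 18.9, 21.3 and 20.5 CPM with duplexes 1, 2 and 3. Control siRNA gave 20.5 and 24.0 CPM with duplex 1 and 25.9 and 28.9 CPM with duplex 2, and the mock library was highest of all at 32.2 CPM. The NFE2L2 siRNA libraries lay close together, duplexes 1 and 3 below the lowest control and duplex 2 just above it, beside a wide control range. Its log2 fold change was −0.30 (SE 0.129, 95% interval −0.58 to −0.01, adjusted p = 0.189, edgeR). Between the control duplexes it was 0.31 higher with duplex 2 (SE 0.093, adjusted p = 0.0689, edgeR), a difference as large as that between the groups. The PHGDH promoter is shown at its CCAAT box in capitals (chr1:119711851-119711879, plus strand, GRCh38.p14), since this motif was the one searched that most of these promoters share.
PHGDH CCAAT box: gagtatttccgtCCAATcaaaaggagact

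PSAT1 (ENSG00000135069.9, chr9:80912041-80945009, plus strand) measured 124, 111 and 87.8 CPM with duplexes 1, 2 and 3. Control siRNA gave 123, 138, 131 and 143 CPM, and the mock library 156 CPM. Duplexes 2 and 3 lay below all controls and duplex 1 within their range. Silencing gave a log2 fold change of −0.31 (SE 0.123, 95% interval −0.59 to −0.04, adjusted p = 0.152, edgeR). Without NFE2L2 siRNA replicate 3 it was −0.18 (adjusted p = 0.347), and without replicate 1 it was −0.43 (adjusted p = 0.0499). Its promoter held 3 CCAAT boxes.

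PSPH (ENSG00000146733.9, chr7:56078744-56119297, minus strand) measured 19.9, 39.2 and 33.3 CPM with duplexes 1, 2 and 3. The controls gave 40.0 and 41.6 CPM with duplex 1 and 34.0 and 34.8 CPM with duplex 2, and the mock library 41.3 CPM. Duplex 1 stood apart, while duplex 2 lay within the control range. This gave a log2 fold change of −0.29 (SE 0.201, 95% interval −0.74 to 0.16, adjusted p = 0.411, edgeR), −0.05 without NFE2L2 siRNA replicate 1 and −0.51 without replicate 2.

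TYMS (ENSG00000176890.11, chr18:657653-673578, plus strand), which methylates dUMP for DNA synthesis, measured 8.11, 9.95 and 17.6 CPM with duplexes 1, 2 and 3. Control siRNA gave 17.2, 18.9, 19.1 and 22.6 CPM, and the mock library 22.1 CPM. Duplexes 1 and 2 lay far below the controls, and duplex 3 inside their range. The log2 fold change was −0.71, the largest in size of the 9 (SE 0.236, 95% interval −1.24 to −0.18, adjusted p = 0.0965, edgeR). Without NFE2L2 siRNA replicate 3, the duplex inside the control range, it was −1.11 with an adjusted p of 0.00762 (edgeR), in a fit where 1.33% of all genes passed. Over all omissions of 1 library it ranged from −1.11 to −0.50, with an adjusted p of up to 0.2035 (edgeR).

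**Figure D3:**
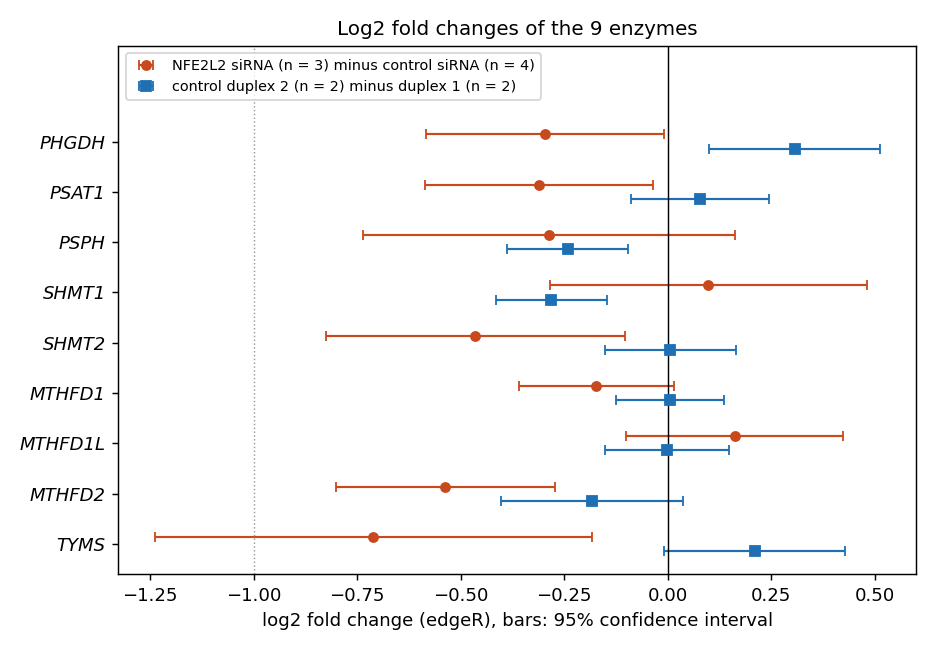
Log2 fold changes (x axis) with 95% confidence intervals from edgeR for each enzyme, for NFE2L2 siRNA minus control siRNA (red circles) and for control duplex 2 minus control duplex 1 (blue squares). The dotted line marks −1; in the first comparison only the TYMS interval crosses it, and the intervals of PSPH, SHMT1, MTHFD1 and MTHFD1L hold 0.

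The 3 duplexes did not give one profile over the 9 enzymes. Duplex 1 was below all controls for 8 of 9, all but PSAT1, where 33.1% of all tested genes were. Duplex 2 was below all controls for 5 of 9 (31% of all genes) and above all for SHMT1 and MTHFD1L. Duplex 3 was below all controls for 6 of 9 (33.4% of all genes) and above all for MTHFD1L. The 3 counts share the same control libraries, and the shares of all genes above all controls were not counted for single duplexes. The median log2 difference of the 9 from the control mean was −0.39 with duplex 1, −0.14 with duplex 2 and −0.27 with duplex 3, against values within 0.01 of 0 over all genes. Residual NFE2L2 was 32.9, 52.0 and 29.7 CPM with duplexes 1, 2 and 3. Duplex 2 had the most NFE2L2 left and the median of smallest size. Duplexes 1 and 3 were close in NFE2L2, with duplex 3 slightly lower, and duplex 1 had the lowest median. The part of residual NFE2L2 in these differences was not tested.

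**Figure D4:**
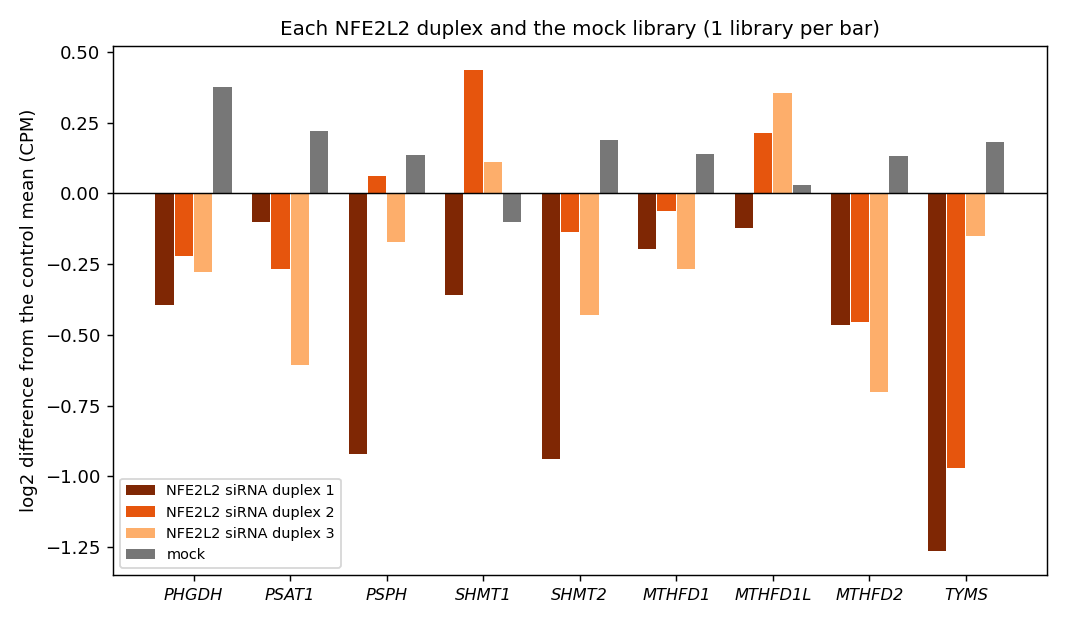
Log2 difference in CPM from the mean of the 4 control siRNA libraries (y axis) for each enzyme in the libraries of NFE2L2 siRNA duplexes 1, 2 and 3 (dark to light red) and in the mock library (grey), with 1 library per bar and so no error bar. MTHFD2 was low with each duplex, PSPH and SHMT2 were lowest with duplex 1, and TYMS was low with duplexes 1 and 2.

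Between the control duplexes, 0 of the 9 enzymes passed the threshold of 0.01 in edgeR, where 3.07% of all genes did, and DESeq2 and limma-voom called 0 of 9 as well (6.54% and 2.85% of all genes). At an unadjusted p under 0.05 there were 3 of 9, against 25.4% of all genes. These were PHGDH, with the value given above, PSPH with a log2 fold change of −0.24 for duplex 2 over duplex 1 (adjusted p = 0.0469) and SHMT1 with −0.28 (adjusted p = 0.0177). The control duplexes did not overlap for 4 of 9, these 3 and TYMS, against 55.6% of all genes. With 2 libraries a duplex an exact test over libraries cannot reach 0.05, and only the fit across all genes is given. Without control replicate 1 MTHFD2 passed, where 7.39% of all genes did, and without control replicate 2 PHGDH and SHMT1 passed, where 11.3% did. These fits leave 1 library in a duplex, which is assumed to vary like the other duplex.

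The mock library was above all 4 controls for PHGDH, PSAT1, SHMT2 and MTHFD1, which is 4 of 9 against 22.6% of all genes, and below all for none (22.5% of all genes). It was above the control mean for 8 of 9, all but SHMT1. The share of all genes above the control mean was not counted, and their median log2 difference was 0.003. With 1 mock library the difference has no replicate check.

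Levels between genes can be set side by side only per length. In the control libraries the mean per kilobase of the main transcript was 60.6 CPM for PSAT1, 53.1 for MTHFD2, 53.0 for MTHFD1 and 52.7 for SHMT2, 4 genes whose neighbours in this order overlapped. SHMT1 followed at 25.4 CPM per kilobase and PSPH at 19.04, each apart from its neighbours. PHGDH at 13.3, TYMS at 12.1 and MTHFD1L at 11.5 CPM per kilobase came last, and neighbours overlapped. With all annotated exons merged as the length, a choice added after the data were seen, PSAT1 stayed first at 60.6 and PHGDH became last at 2.71 CPM per kilobase, so the order below PSAT1 depends on the length used.

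Among the other genes of one-carbon metabolism, 30 of 33 were tested, since FTCD, GNMT and BHMT had too few reads, and 0 of 30 passed the threshold of 0.01 in edgeR. There were 5 of 30 at an unadjusted p under 0.05 (25% of all genes), and DESeq2 called 2, GGH among them (7.7% of all genes), and limma-voom 0 (2.61%). Without NFE2L2 siRNA replicate 1 the mitochondrial serine carrier SFXN1 passed (3.02% of all genes), and without replicate 2 the count was 2, GGH among them (5.15%). SFXN1 measured 211, 106 and 134 CPM with duplexes 1, 2 and 3 and 187 to 213 CPM with control siRNA. The mock library, which received no siRNA, was also below all controls for SFXN1, at 151 CPM. The median log2 fold change of the 30 tested genes was −0.01. GGH, which trims the glutamate tail of folates, measured 69.8, 91.4 and 72.5 CPM with duplexes 1, 2 and 3 and between 99.7 and 123 CPM with control siRNA. The groups did not overlap, and its log2 fold change was −0.49 (SE 0.120, adjusted p = 0.0354, edgeR). Of the other mitochondrial or cytosolic folate genes, MTHFD2L had a log2 fold change of −0.01, ALDH1L2 of −0.09 and the mitochondrial folate carrier SLC25A32 of −0.26, with adjusted p-values from 0.233 to 0.972 (edgeR). The signs for MTHFD2L and ALDH1L2 turned when single libraries were left out, and that for MTHFD2L also with scaling by library size alone.

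Of 20 genes of the ATF4 axis, 2 passed the threshold in edgeR, both lower, where 1.36% of all genes were lower. These were SLC7A11, the cystine transporter and itself a known NRF2 target, which fell by 3.09 on the log2 scale (SE 0.298, adjusted p = 0.000307), and CEBPB, a bZIP factor, which fell by 0.55 (SE 0.096, adjusted p = 0.0087). The median of the list was −0.29, near that of the 9 enzymes, with 15 of 20 below 0. Without any one of NFE2L2 siRNA replicates 2 and 3 or the 4 control libraries, CEBPB no longer passed, with an adjusted p from 0.0123 to 0.0399. ATF4 mRNA measured 189, 205 and 211 CPM with duplexes 1, 2 and 3 and 232 to 270 CPM with control siRNA. These groups did not overlap, and the log2 fold change of ATF4 was −0.30 (SE 0.093, adjusted p = 0.0777, edgeR). ASNS, the asparagine synthetase gene used as a readout of ATF4, had −0.36 (adjusted p = 0.169) and TRIB3 −0.37 (adjusted p = 0.0892, both edgeR). ASNS measured 31.9, 26.3 and 33.1 CPM with duplexes 1, 2 and 3, which overlapped the controls at 30.1 to 45.3 CPM. The mock library was at 55.1 CPM for ASNS. For TRIB3 the groups did not overlap. ATF4 is regulated largely in translation, which counts of RNA do not measure.

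The 20 S-phase genes, a list that TYMS is not part of, had a median log2 fold change of −0.51, with 20 of 20 below 0. In edgeR 2 of 20 passed, both lower, where 1.36% of all tested genes passed as lower. MCM5, a subunit of the replicative helicase, fell by 0.81 (SE 0.112, adjusted p = 0.00272, edgeR). RRM2, the small subunit of ribonucleotide reductase, fell by 1.02 (SE 0.175, adjusted p = 0.00769, edgeR). The summed level of the 20 genes was 1199, 2070 and 1398 CPM with duplexes 1, 2 and 3. It was between 2165 and 2380 CPM with control siRNA and 2423 CPM in the mock library. All 3 sums were below the lowest control, that of duplex 2 by the least. All 20 S-phase genes were below all controls with duplex 1 (33.1% of all genes) and with duplex 3 (33.4% of all genes). With duplex 2, 7 of 20 were below all controls, near the share of 31% over all genes. Another 9 were above all controls with duplex 2, for which the share over all genes was not counted. The median difference from the control mean with duplex 2 was 0.05. Without NFE2L2 siRNA replicate 2 the number passing was 13, where 5.15% of all genes passed. It was 1 without NFE2L2 siRNA replicate 1 or control replicate 1, and 0 without NFE2L2 siRNA replicate 3 or control replicate 2, 3 or 4. The part of the S-phase level in the values of the 9 enzymes was not tested.

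**Figure D5:**
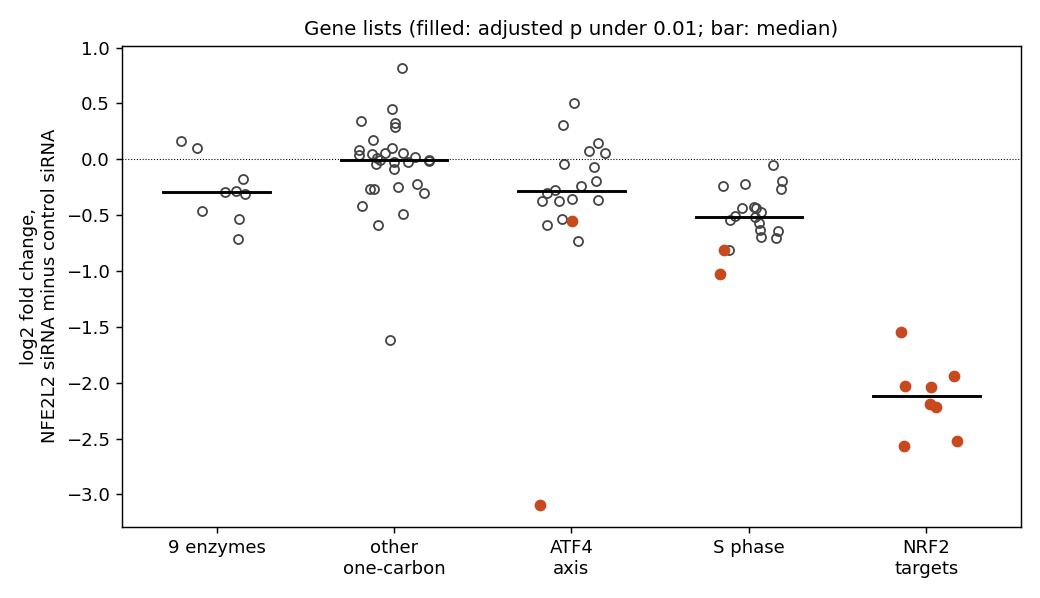
Log2 fold change of NFE2L2 siRNA minus control siRNA (y axis, edgeR) for each tested gene of the 9 enzymes, the other one-carbon genes, the ATF4 axis, the S-phase genes and NRF2 with its targets. Filled red points passed an adjusted p of 0.01, open points did not, points are spread sideways for legibility, and black bars are medians: −0.30 for the 9 enzymes, −0.01, −0.29, −0.51 and −2.12 for the other lists.

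NFE2L2 and 7 known targets of NRF2, among them GCLC, GCLM, NQO1, TXNRD1, HMOX1 and SRXN1, set the scale. All 8 fell, with a median of −2.12 and 95% intervals wholly below −1 for 8 of 8. The glutathione synthesis gene GCLC fell by 2.03 on the log2 scale (SE 0.089) and GCLM, its regulatory partner, fell by 2.52 (SE 0.119). The targets were picked as known responders, with earlier results of these data known. Their direction is therefore no independent check of the silencing, and the share of all genes with such intervals was not counted.

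The genes whose log2 profile over the 8 libraries was nearest to each enzyme were taken from 12166 genes with a mean of at least 100 reads, by the root mean square of the difference after centring. For MTHFD2 they were GEMIN6 at 0.0653, PIM3 at 0.0718 and PSMG3 at 0.0725. For PHGDH they were TRMT2A at 0.0652, TRMT112 at 0.0733 and MAGOHB at 0.0983. For TYMS the nearest was IFI27L1, at 0.185, a poorer likeness than for the others. None of the genes named here is another of the 9 enzymes.

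Reads counted on named copies of the enzymes were few. The annotation lists 16 copies of the 9 enzymes by name, of which 11 had 0 reads in all libraries and 15 at most 2 reads in any. The exception was MTHFD2P7, at 16 to 42 reads. Reads that align to more than one place were left out by the counting, and the counts of genes with such copies are uncertain to that extent. The one well-expressed overlaps were on the opposite strand: ENOSF1 with TYMS (1526 to 1977 reads), SMCR8 with SHMT1 (1210 to 1682 reads) and ZBTB25 with MTHFD1 (1309 to 1613 reads). The counting was done by strand.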

How the data were processed

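Strand-specific total RNA-seq of 8 A549 libraries was used. The authors aligned reads with HISAT 0.1.6 to hg19 and deposited read counts per gene from HTSeq 0.6.0 (reverse strand setting, GENCODE 19), without normalization. Classes of unassigned reads were left out. Positions, names and transcript lengths came from GENCODE 44 mapped to GRCh37, which held 55538 of 60291 identifiers.

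A gene entered the tests if any of the 7 compared libraries held 10 or more reads of it, which left 17811. The main test was the two-sided quasi-likelihood test of edgeR 4.0.16 (R 4.3.3, TMM, Benjamini-Hochberg, threshold 0.01). TMM factors were 0.957 to 1.02. The study's methods used DESeq2, here an alternative (1.42.0), as was limma-voom (limma 3.58.1). SE is the absolute log2 fold change over the root of F. CPM per kilobase uses 1 main transcript. A floor of 3 counts was 0.0720 to 0.0845 CPM and covers counting error only. The tests were checked on simulated data.

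Samples were grouped by their labels, and the mock library entered no main test. Other alternatives were size factors, filters, thresholds, control sets and single libraries left out. Named genes were the 9 enzymes, listed genes past the threshold, ATF4, MTHFD2L, ALDH1L2 and SLC25A32, copies, overlapping genes and nearest profiles; GGH, SFXN1, ASNS, TRIB3, SLC7A5, SLC3A2, SESN2 and the markers were added after their values were seen. Members and lists were chosen with earlier results of these data known, so no list is independent support. Values of a few listed genes are not reported here, though counts and medians over the lists include them.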

Additional observations from a re-analysis of the deposited data

Results flagged for a closer look

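The mock library, which entered none of the tests, lay above all 4 control siRNA libraries for 4 of the 9 enzymes. It measured 32.2 CPM for PHGDH, a log2 difference of 0.38 from the control mean. For PSAT1 it measured 156 CPM, a difference of 0.22. For SHMT2 it measured 130 CPM, a difference of 0.19, and for MTHFD1 184 CPM, a difference of 0.14. Over all tested genes 22.6% lay above all controls in the mock library, and there is no second mock library. None of the 27 genes examined had a control library apart from the other controls by Dixon's criterion, where chance would give about 1.35.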

How the results depend on the processing

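The number of the 9 enzymes past the threshold, 0, became 1 with DESeq2, with a filter of 1 read, at a threshold of 0.05 and with the mock library added (each time MTHFD2), and ranged from 0 to 1 with single libraries left out. It stayed 0 under the other alternatives run. The other one-carbon count of 0 became 2 with DESeq2 and at 0.05 and 1 with the 1-read filter or the mock library, and ranged from 0 to 2 with libraries left out. The ATF4 axis count of 2 was 1 with control duplex 1 alone or controls summed by duplex and 0 with control duplex 2 alone, and ranged from 1 to 3. The S-phase count of 2 was 6 with DESeq2, 5 with the 1-read filter and at 0.05, 0 with either control duplex alone or controls summed, and ranged from 0 to 13. Over all genes, 491 became 1319 with DESeq2, 1019 with the 1-read filter, 1456 at 0.05, 117 and 60 with control duplex 1 or 2 alone, 771 with the mock library and 77 with controls summed, and ranged from 163 to 917. Between the control duplexes, 546 became 4 with the 1-read filter and 1697 at 0.05, and ranged from 0 to 2021; among the enzymes 0 became 2 at 0.05 and ranged from 0 to 2. With library size alone 31.56% of the calls were lower in duplex 2, against 46.52% with TMM. Fewer control libraries leave fewer degrees of freedom, and for the other settings the cause was not tested.

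The sign turned for SHMT1 (−0.048 with control duplex 1 alone, −0.12 without NFE2L2 siRNA replicate 2, and −0.12 to 0.28 over all omissions of 1 library), for MTHFD2L (0.020 with library size alone, and −0.16 to 0.079 over the omissions, above 0 without NFE2L2 siRNA replicate 2 or 3) and for ALDH1L2 (0.15 with control duplex 1 alone, and −0.29 to 0.029 over the omissions, above 0 without NFE2L2 siRNA replicate 1 or control replicate 4). The other 8 enzymes kept their sign in all 19 alternatives. No paired analysis was possible because the replicate number names a siRNA duplex in the NFE2L2 siRNA group and a repeat of a control duplex in the controls. With 1 transfection a duplex, the standard errors of 0.0835 to 0.236 on the log2 scale limit what could be called for the 9 enzymes.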

Other observations

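In the NFE2L2 siRNA group the ATF4-linked amino acid transporters spanned a wider range between duplexes, relative to their level, than any of the 9 enzymes. SLC7A5, the large neutral amino acid transporter, measured 189, 1502 and 665 CPM with duplexes 1, 2 and 3, against 1004 to 1323 CPM with control siRNA, and its partner SLC3A2 measured 230, 703 and 413 CPM against 673 to 816 CPM. Their log2 fold changes were −0.53 (SE 0.501, adjusted p = 0.553) and −0.74 (SE 0.293, adjusted p = 0.155) in edgeR. SESN2, a stress-induced inhibitor of mTORC1, measured 26.6, 31.9 and 33.0 CPM against 16.5 to 27.1 CPM, a log2 fold change of 0.51 (SE 0.165, adjusted p = 0.091, edgeR). These genes were chosen after their values were seen.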
